A study of Mus musculus with 6 samples.

Results

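The genes described here are the tumour necrosis factor (TNF) superfamily ligands, their receptors and the TRAF adaptors of RAW264.7 cells, taken by symbol from the platform annotation: Tnf, Cd40, Fas, Ltb, Lta, symbols that start with Tnfrsf or Tnfsf and a digit, and symbols that start with Traf and a digit. They numbered 41 of 18193 measured genes, each represented by 1 probe set, the one with the highest mean signal among those annotated to a single gene. There were 10 ligands, 5 receptors with a death domain, 3 decoy receptors, 13 receptors that bind TRAF adaptors, 6 TRAF adaptors and 4 genes that the symbols also took in. The last 4 were Traf3ip1, Traf3ip2 and Traf3ip3, which encode TRAF3-interacting proteins, and Tnfsf13os, a transcript opposite to Tnfsf13.

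All cultures came from 1 line, RAW264.7, which is a mouse line of the monocyte and macrophage lineage. Low-passage cells were kept for 24 hours in αMEM with sodium at 137 mmol/l (normal sodium, 3 arrays) or in the same medium diluted to 120 mmol/l with mannitol holding the osmolality at 290 mOsm/l (low sodium, 3 arrays). The labels add 10 ng/ml M-CSF (spelled M-SCF there) with 30 ng/ml RANKL as cytokines, without making clear that both media held them. The labels speak of 4 biological replicates per group, of which 3 were analysed here, and they call the cells osteoclastic. All 10 macrophage markers checked were bright on the arrays, whereas 5 of 9 osteoclast markers were. Those that were not were the calcitonin receptor gene Calcr, the integrin gene Itgb3, Oscar and Ocstamp. Their mean log2 intensities over both media were 3.37, 3.65, 6.19 and 6.20. Ocstamp had a mean of 4.82 in normal and of 7.58 in low sodium.

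TNF ligands are trimers, mostly anchored in the membrane, that cluster their receptors. Receptors with a death domain can recruit TRADD or FADD and lead to cell death. The others apart from decoy receptors, and TNFR1 as well, bind TRAF adaptors that feed NF-kB and MAP kinase pathways. In the osteoclast lineage RANKL (Tnfsf11) acts through RANK (Tnfrsf11a) and TRAF6, osteoprotegerin (Tnfrsf11b) traps RANKL, and TNF adds to osteoclast formation.

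In low sodium the transcript of Tnf was 2.31-fold higher than in normal sodium and that of Tnfrsf1b, which encodes the second TNF receptor TNFR2, 1.44-fold higher. These were the 2 of 41 genes (4.88%) that rose by a limma fit with a term for the replicate 3 arrays. By that fit 3.78% of all genes rose. None of the 41 fell, as against 3.81% of all genes, and neither gene passed a fit without the term. RANK, TRAF6 and TNFR1 transcripts differed by log2 values of 0.12, 0.01 and 0.05 on their brightest probe sets and did not pass. Among TRAF adaptors the low-sodium mean was lower for Traf2 and Traf7 and higher for Traf5, none of which passed.

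Low and normal sodium were compared over all 18193 genes by a pair of limma fits, with p-values adjusted by Benjamini-Hochberg and a threshold of 0.05. The plain fit compares the media alone. The replicate-3 fit adds a term for the replicate 3 arrays and lets the variance prior follow the signal. It was taken over from an earlier analysis of these data that had its counts in view, so its p-values carry less weight. By the plain fit 0 of 41 genes passed, as against 0.0055% of all genes (1 of 18193), and 2 of 41 were at an unadjusted p under 0.05, Traf5 and Traf3ip3, as against 8.15% of all genes. The replicate-3 fit called 7.6% of all genes in either direction. By that fit 2 of 41 (4.88%) were higher, as against 3.78% of all genes, and 0 of 41 were lower, as against 3.81%. At an unadjusted p under 0.05 the replicate-3 fit had 7 of 41 genes, as against 21.7% of all genes. These shares lie near those of all genes, or below them. In the text below, "rose" refers to the replicate-3 fit.

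The replicate 3 arrays of both media differed from the rest in their controls. Bacterial spike-in probe sets had a mean log2 intensity of 9.12 to 9.52 on the arrays of replicates 1 and 2 and of 7.68 to 7.76 on those of replicate 3. The 3′ minus 5′ signal of the spike-in dap was 0.96 to 1.06 on the former and 2.94 to 3.07 on the latter, and the labels name no batch. The 3′ minus 5′ signal of Gapdh, a measure of RNA quality, was -0.36 to -0.26 on the arrays of replicates 1 and 2 and -0.25 to -0.22 on those of replicate 3, and that of beta-actin was 0.20 to 0.29 and 0.08 to 0.09. Values are therefore given for each replicate number as well. Nothing but their number in the labels shows how the cultures relate. The p-values of the plain fit measure the spread between these cultures. Those of the replicate-3 fit measure the spread that remains once the offset of the replicate 3 arrays is taken out.

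A gene is called bright here where its mean log2(intensity + 1) over the 6 arrays is at or above 7.12, the median over all genes, and dim otherwise. Of the 41 genes 17 were bright and 24 dim. Ltb, at 7.23, lay just inside this limit and Traf3ip3, at 7.01, just outside. The means of the 24 dim genes ran from 3.16 to 7.01, and those of 20 markers of T cells, B cells, fibroblasts, osteoblasts, epithelium and endothelium from 2.64 to 7.14. None of those 20 markers passed either fit, with summed intensities of 787 to 1332 in normal and 679 to 1209 in low sodium, and none was at 0. The standard deviation within a group had a median of 0.81 (log2) over the dim genes of the family and of 0.30 over the bright ones. The replicate-3 fit called 14.8% of all bright genes and 0.429% of all dim ones. The 2 called genes of the family were among its 17 bright ones (11.8%), a share below that of all bright genes, and 0 of its 24 dim ones passed. At an unadjusted p under 0.05 the replicate-3 fit had 6 of the 17 bright genes (35.3%), as against 37.2% of all bright genes.

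**Figure D1:**
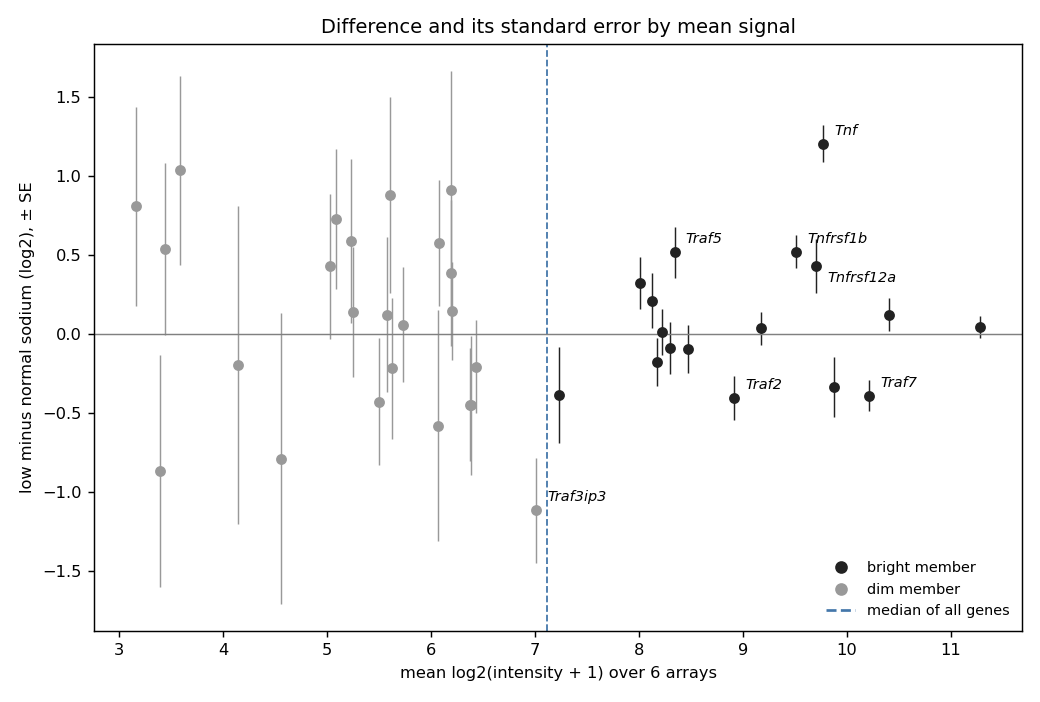
Difference between low and normal sodium (log2, vertical axis, with the standard error of the replicate-3 fit as bars) against the mean log2(intensity + 1) over 6 arrays for the 41 genes, with the median of all genes as a dashed line. Genes at an unadjusted p under 0.05 in that fit are named; standard errors ran from 0.069 to 0.30 in bright genes and from 0.29 to 1.01 in dim ones.

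Of the 10 ligand genes 3 were bright. Tnf, which encodes the founding cytokine of the family, had log2 intensities of 9.70, 9.97 and 7.84 on the normal-sodium arrays of replicates 1, 2 and 3 and of 10.93, 10.91 and 9.29 on the low-sodium arrays. Both replicate 3 arrays were the lowest of their group, and the low-sodium one lay below the other 2 normal-sodium arrays, so the groups overlapped. At each replicate number low sodium was higher, by 1.23, 0.95 and 1.45. Tnf rose by 1.21 ± 0.12 (SE, n = 3 against 3; limma adjusted p = 0.00249), and the plain fit, in which the offset of replicate 3 counts as noise, gave 1.21 ± 0.74 (limma adjusted p = 0.743). The call held without any 1 of the 6 arrays (limma adjusted p between 0.000609 and 0.0234) but not with a constant variance prior (limma adjusted p = 0.135). Omitting either replicate 3 array leaves the same estimate from replicates 1 and 2.

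The promoters of Tnf and Tnfrsf1b are shown because these were the genes that passed. They are the 250 bases before the annotated start, from the RefSeq promoter table of GRCm38.p6, in which 33 of the 41 genes had an entry. Tnf lies at chr17:35202008-35202257 and Tnfrsf1b at chr4:145246871-145247120, both on the minus strand and written 5′ to 3′ along the gene. Capitals mark matches, on either strand, to the TATA box (TATAAA), the NFAT core (GGAAAA) and the GC box (GGGCGG).
Tnf: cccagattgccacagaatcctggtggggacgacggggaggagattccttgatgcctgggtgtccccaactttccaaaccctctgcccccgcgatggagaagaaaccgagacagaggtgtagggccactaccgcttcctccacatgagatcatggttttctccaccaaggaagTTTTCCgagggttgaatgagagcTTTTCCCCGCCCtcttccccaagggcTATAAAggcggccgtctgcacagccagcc
Tnfrsf1b: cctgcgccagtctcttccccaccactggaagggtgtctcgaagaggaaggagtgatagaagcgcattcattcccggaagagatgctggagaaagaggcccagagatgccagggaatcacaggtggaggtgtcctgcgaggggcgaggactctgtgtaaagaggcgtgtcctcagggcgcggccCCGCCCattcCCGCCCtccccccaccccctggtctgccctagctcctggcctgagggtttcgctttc
Tnf held a TATA box at bases 29 to 24 before the start. It held 2 NFAT cores, at bases 78 to 73 and 55 to 50, and a GC box that adjoins the latter without overlap. The NFAT cores and the GC box match on the strand opposite to the one written. Tnfrsf1b held 2 GC boxes, also on the strand opposite to the one written, and no TATA box. Among 32851 promoter windows of this length 12.4% held the TATA box, 20.4% the NFAT core and 32.7% the GC box. The NF-kB consensus, the AP-1 motif TGANTCA and the CRE motif TGACGTCA, which 7.25%, 6.75% and 1.55% of all windows held, had no match in these 2 windows.

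For Tnfsf9, which encodes the 4-1BB ligand, the log2 intensities were 10.27, 10.15 and 9.70 in normal sodium and 10.00, 10.34 and 8.78 in low sodium. The groups overlapped, and most of the difference of -0.33 ± 0.19 came from replicate 3 (-0.27, 0.18 and -0.92 by replicate number; limma adjusted p = 0.369). Ltb, which encodes lymphotoxin beta, had 6.89, 7.50 and 7.87 in normal and 6.67, 7.38 and 7.06 in low sodium. Low sodium was lower at each replicate number, by at most 0.81, yet the groups overlapped (-0.39 ± 0.30, limma adjusted p = 0.536).

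The other 7 ligand genes were dim. Tnfsf11, which encodes RANKL itself, had log2 intensities of 2.59, 2.74 and 3.85 in normal and 4.19, 3.00 and 5.11 in low sodium. Low sodium was higher at each replicate number, and the groups overlapped. Its difference of 1.04 ± 0.60 did not pass (limma adjusted p = 0.382) and became 0.50 with 16 instead of 1 added to the intensities. The other, dimmer probe set of Tnfsf11 had 2.12, 2.62 and 1.06 in normal and 4.63, 1.62 and 2.83 in low sodium. There low sodium was lower at replicate 2. Lta, Tnfsf4, Tnfsf8, Tnfsf10, Tnfsf13b and Tnfsf14 had mean signals between 3.16 (Lta) and 6.06 (Tnfsf13b, which encodes BAFF), and differences between -0.58 (Tnfsf13b) and 0.81 (Lta). In Lta and Tnfsf14, too, low sodium was higher at each replicate number on the probe sets used. On the other probe set of Tnfsf14 it was lower at replicates 2 and 3.

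**Figure D2:**
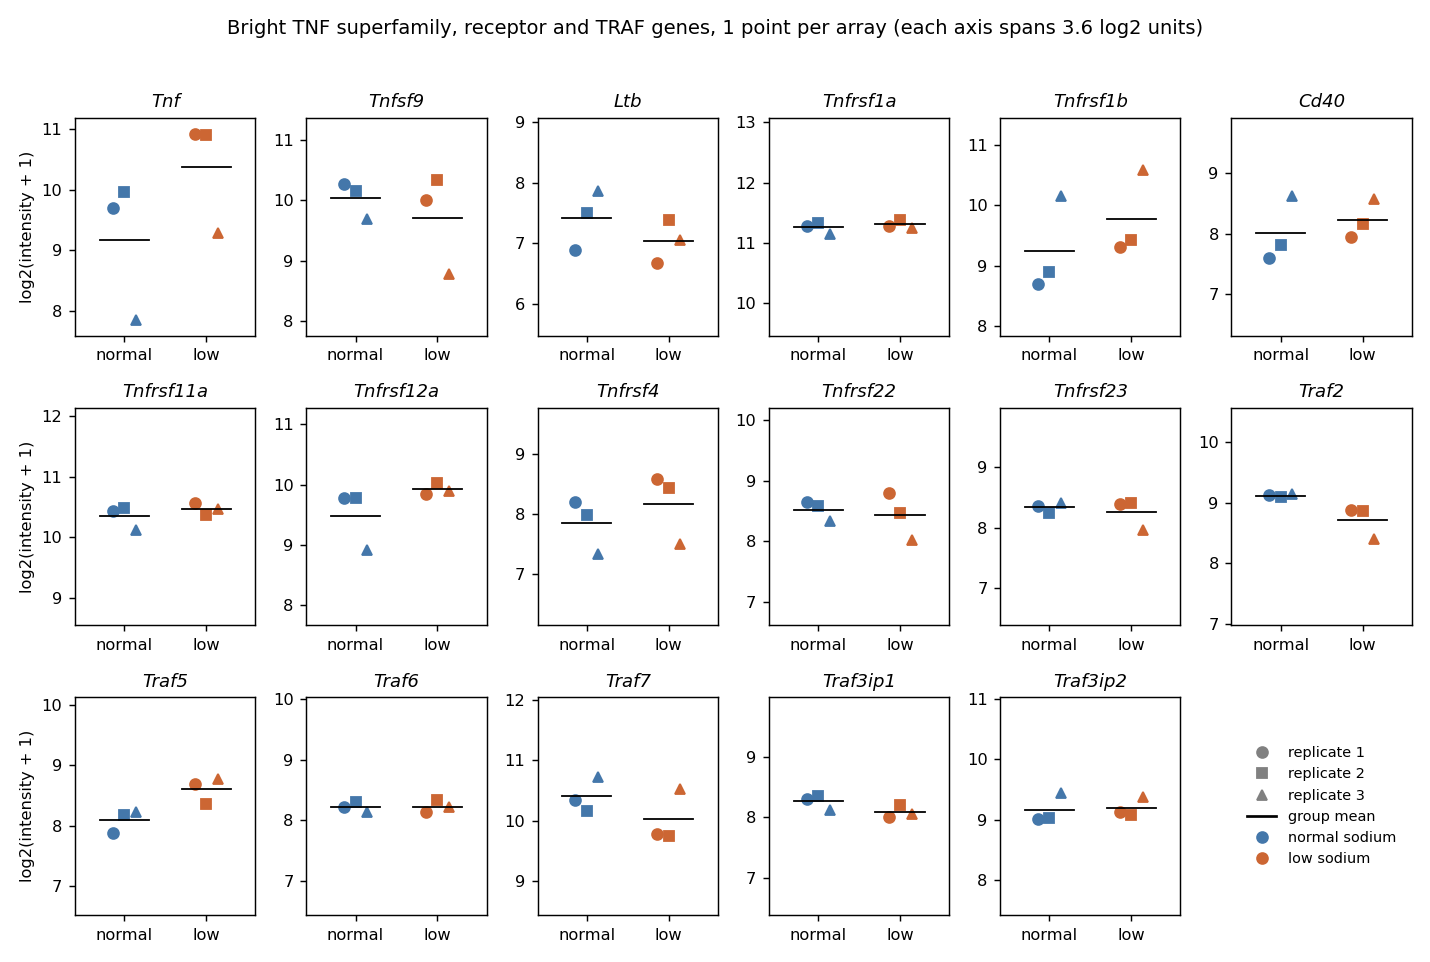
Log2(intensity + 1) of the 17 bright genes on each array, normal sodium in blue and low sodium in orange, with circles, squares and triangles for replicates 1, 2 and 3 and a line at each group mean. Low-sodium Tnf lay above normal-sodium Tnf at each replicate number although both replicate 3 arrays were low, and the groups of Tnfrsf12a, Traf2 and Traf5 did not overlap.

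Tnfrsf1a, which encodes TNFR1, the death-domain receptor of TNF, had the smallest spread within groups of the 41 genes. Its log2 intensities were 11.29, 11.33 and 11.16 in normal and 11.29, 11.38 and 11.26 in low sodium, a difference of 0.05 ± 0.07 (limma adjusted p = 0.757). Tnfrsf1b, which encodes TNFR2, a receptor with no death domain, had 8.70, 8.89 and 10.16 in normal and 9.31, 9.43 and 10.58 in low sodium. Both replicate 3 arrays were the highest of their group and the groups overlapped, but low sodium was higher by 0.60, 0.54 and 0.43 at the 3 replicate numbers.

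Tnfrsf1b rose by 0.52 ± 0.11 (SE, n = 3 against 3; limma adjusted p = 0.0277), and by the plain fit it did not pass (limma adjusted p = 0.856). The call was lost without normal-sodium replicate 1 or 2 or low-sodium replicate 1 or 2 (limma adjusted p of 0.112, 0.0919, 0.107 and 0.134). In those settings 2.05% to 2.54% of all genes passed. The call was also lost after median centring, with a constant prior and with the 2 probe sets of Tnfrsf1b averaged (limma adjusted p of 0.0732, 0.194 and 0.0832). Its other probe set had 8.04, 8.07 and 7.71 in normal and 8.24, 8.16 and 8.45 in low sodium. Those groups did not overlap, and replicate 3 was the lowest of the normal-sodium and the highest of the low-sodium arrays there. The difference of 0.34 ± 0.17 did not pass among all 45037 probe sets (limma adjusted p = 0.377). Whether Tnfrsf1b differed from Tnfrsf1a in its response was not tested.

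The other 4 death-domain receptor genes, Fas, Tnfrsf10b (TRAIL receptor), Tnfrsf21 (DR6) and Tnfrsf25 (DR3), were dim, with means between 5.58 and 6.19. Their differences lay between 0.12 (Tnfrsf21) and 0.88 (Tnfrsf25), and none passed. Tnfrsf10b was the one whose groups did not overlap, with 6.13, 6.06 and 5.16 in normal and 6.17, 6.22 and 6.69 in low sodium. Nearly all of its difference of 0.58 ± 0.40 came from replicate 3, and its other, dimmer probe set differed the other way, by -0.31.

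Tnfrsf11a, which encodes RANK, was measured by 2 bright probe sets that gave different values. The brighter one had 10.44, 10.49 and 10.11 in normal and 10.57, 10.37 and 10.46 in low sodium, with overlapping groups and a difference of 0.12 ± 0.10 (limma adjusted p = 0.569). The other had 9.09, 9.23 and 8.26 in normal and 9.60, 9.62 and 9.51 in low sodium, with every low-sodium array above every normal-sodium one. Its difference of 0.72 ± 0.17 did not pass among all probe sets (limma adjusted p = 0.0617), and the plain fit gave an adjusted p of 0.790. The files do not say which part of the transcript either probe set reads.

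Cd40, the costimulatory receptor gene of antigen-presenting cells, had log2 intensities of 7.60, 7.82 and 8.62 in normal and 7.94, 8.17 and 8.58 in low sodium. The difference of 0.21 ± 0.17 did not pass (limma adjusted p = 0.543). Its other 2 probe sets, both bright, had larger differences of 0.51 ± 0.18 and 0.64 ± 0.20, with limma adjusted p of 0.189 and 0.149 among all probe sets. On all 3 probe sets the replicate 3 arrays were the highest of their group.

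**Figure D3:**
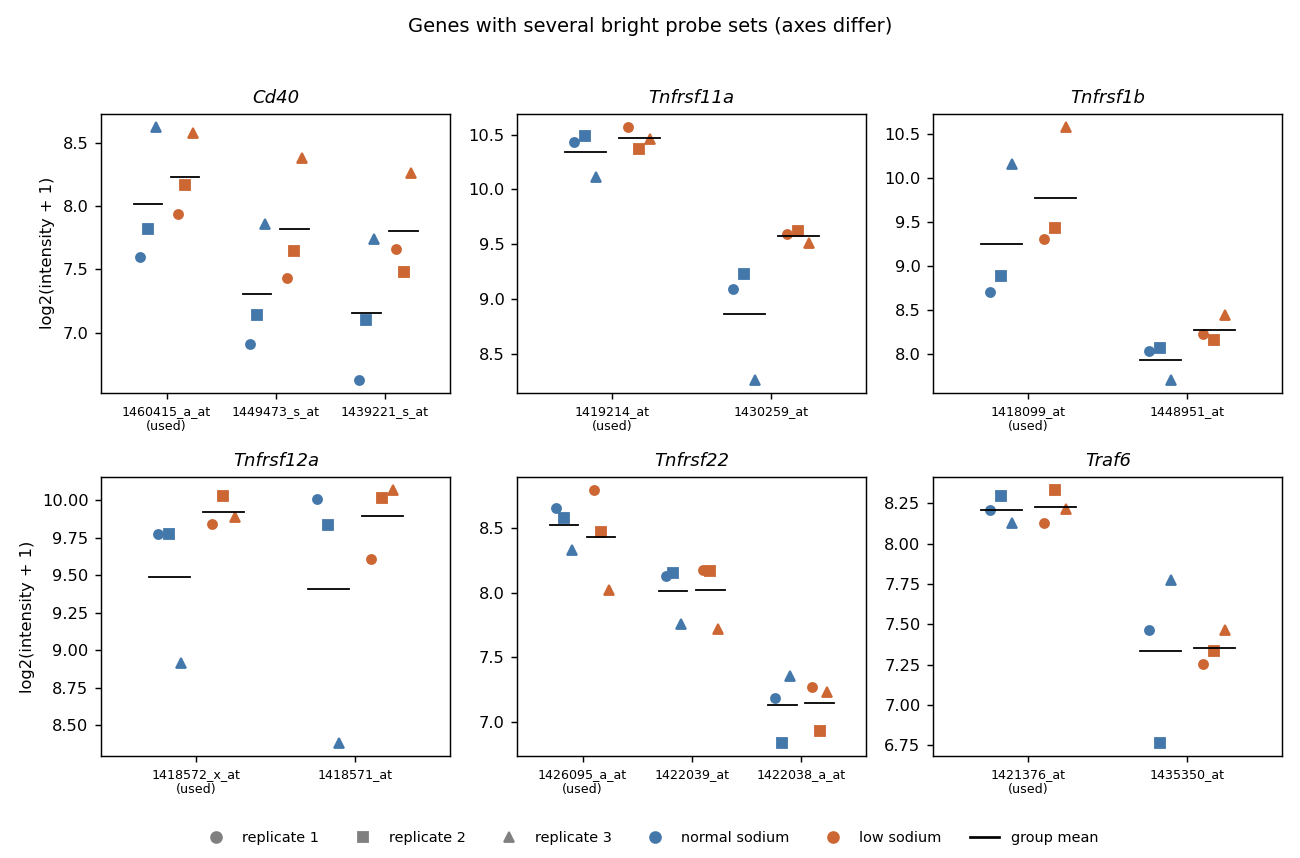
Log2(intensity + 1) on each array for the 6 genes with several bright probe sets (mean at or above 7.12), normal sodium in blue and low sodium in orange, symbols by replicate number and lines at group means. The probe sets of Tnfrsf11a differed by 0.12 and 0.72 between the media, and those of Cd40 by 0.21, 0.51 and 0.64.

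Tnfrsf12a, which encodes Fn14, the TWEAK receptor, had 9.78, 9.78 and 8.91 in normal and 9.84, 10.03 and 9.89 in low sodium. The groups did not overlap, but the normal-sodium replicate 3 array alone was low, and the differences by replicate number were 0.07, 0.25 and 0.98 (0.43 ± 0.17, limma adjusted p = 0.193). This probe set carries the manufacturer's suffix for probes that may bind other transcripts, and on the other bright probe set of the gene the groups overlapped (0.49 ± 0.33). Tnfrsf4, which encodes OX40, had 8.20, 7.99 and 7.34 in normal and 8.57, 8.43 and 7.50 in low sodium, higher at each replicate number but overlapping (0.32 ± 0.17, limma adjusted p = 0.319).

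The remaining 8 TRAF-binding receptor genes were dim. They were Tnfrsf8 (CD30), Tnfrsf9 (4-1BB), Tnfrsf13b (TACI), Tnfrsf13c (BAFF receptor), Tnfrsf14 (HVEM), Tnfrsf17 (BCMA), Tnfrsf18 (GITR) and Tnfrsf19 (TROY). Their differences lay between -0.79 (Tnfrsf19) and 0.91 (Tnfrsf9), with none past either fit and all groups overlapping. Over the 41 genes 24 (58.5%) had a higher mean in low sodium, where 49.2% of all genes did. By role these were 11 of 13 TRAF-binding receptor genes, 5 of 5 death-domain receptor genes, 0 of 3 decoy receptor genes, 5 of 10 ligand genes, 2 of 6 TRAF adaptor genes and 1 of the 4 others. These counts include differences smaller than their standard error.

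Decoy receptors showed no shift that passed. Tnfrsf22 and Tnfrsf23, neighbouring mouse genes whose products bind TRAIL without a death domain, had differences of -0.09 ± 0.15 and -0.09 ± 0.17. The normal-sodium arrays read 8.65, 8.58 and 8.33 for Tnfrsf22 and 8.37, 8.24 and 8.41 for Tnfrsf23, and the low-sodium arrays 8.80, 8.47 and 8.02 and 8.39, 8.41 and 7.96. The low-sodium replicate 3 array was the lowest of all 6 in both. As paralogs the 2 genes may share signal. Tnfrsf11b, which encodes osteoprotegerin, was dim, with 5.47, 3.31 and 2.70 in normal and 3.66, 3.01 and 2.22 in low sodium, and its 2 probe sets differed in direction (-0.86 ± 0.74 on the brighter).

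Of the 6 TRAF adaptor genes 4 were bright. Traf2, the adaptor and ubiquitin ligase platform of both TNF receptors, had 9.12, 9.10 and 9.14 in normal sodium and 8.88, 8.86 and 8.40 in low sodium. Every low-sodium array lay below every normal-sodium one. The difference of -0.40 ± 0.14 did not pass (limma adjusted p = 0.138; 0.677 by the plain fit), and by replicate number it was -0.24, -0.23 and -0.74.

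Traf5, a relative of Traf2 that acts below CD40 and OX40, went the other way. It had 7.88, 8.17 and 8.22 in normal and 8.70, 8.36 and 8.76 in low sodium, again without overlap. Its difference of 0.52 ± 0.16 did not pass (limma adjusted p = 0.109), and by replicate number it was 0.82, 0.19 and 0.55.

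Traf7, the member of the family without a TRAF domain, had 10.34, 10.16 and 10.73 in normal and 9.79, 9.75 and 10.52 in low sodium. It was lower in low sodium by 0.56, 0.40 and 0.20 at the 3 replicate numbers, and its groups overlapped through replicate 3. Its difference of -0.39 ± 0.10 was close to the threshold (limma adjusted p = 0.0583) and passed without either replicate 3 array (-0.48, limma adjusted p of 0.00902 and 0.00863). Both omissions leave the same estimate from the other replicates. In these settings 14.6% and 14.7% of all genes passed, as against 7.6% with all arrays. Traf7 passed also when only bright genes were tested (limma adjusted p = 0.0391), where 20.6% of the genes tested passed.

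Traf6, the adaptor that RANK needs, had 8.21, 8.30 and 8.13 in normal and 8.13, 8.33 and 8.21 in low sodium. Its difference of 0.01 ± 0.15 was smaller than the spread in either group (limma adjusted p = 0.976), and its 4 other probe sets differed by -0.25 to 1.11, of which 0.02 was the value on the other bright one. Traf1 and Traf4 were dim, with differences of -0.20 ± 0.29 and -0.45 ± 0.44.

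**Figure D4:**
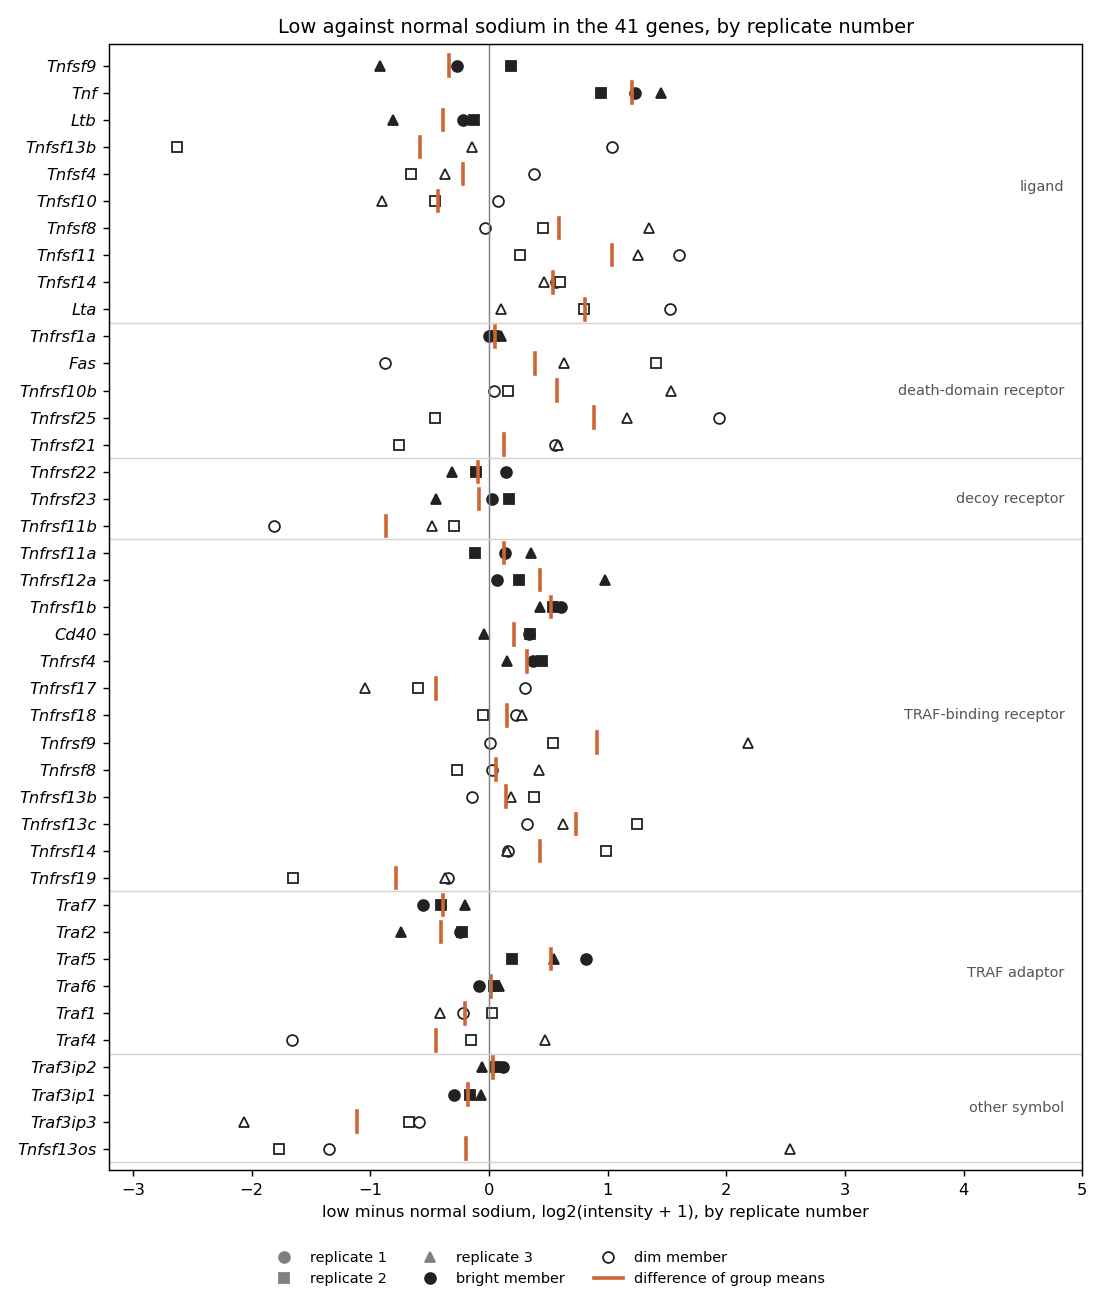
Low minus normal sodium in log2(intensity + 1) at replicate numbers 1, 2 and 3 (circles, squares, triangles) for the 41 genes, grouped by role and ordered by mean signal, with filled symbols for bright and open symbols for dim genes and an orange bar at the difference of the group means. The 3 values of Tnf lay between 0.95 and 1.45, and those of dim genes such as Tnfsf13os ran from -1.77 to 2.53.

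Of the 4 genes taken in by their symbols, Traf3ip3, an adaptor of lymphoid and myeloid cells, had the most negative difference of the 41 genes. It had 7.03, 7.11 and 8.56 in normal and 6.44, 6.43 and 6.49 in low sodium, with no overlap. The difference of -1.11 ± 0.33 rested in part on the normal-sodium replicate 3 array (-0.59, -0.68 and -2.07 by replicate number) and did not pass (limma adjusted p = 0.0955). Traf3ip1, which encodes a protein of cilia, had 8.31, 8.36 and 8.12 in normal and 8.01, 8.20 and 8.05 in low sodium (-0.18 ± 0.15). Traf3ip2, which encodes the IL-17 receptor adaptor Act1, had 9.01, 9.03 and 9.44 in normal and 9.12, 9.09 and 9.38 in low sodium (0.04 ± 0.10). Tnfsf13os was dim and differed by -0.19 ± 1.01.

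Over the 41 genes the groups did not overlap in 5 (12.2%), namely Tnfrsf10b, Tnfrsf12a and Traf5 above and Traf2 and Traf3ip3 below, as against 17.5% of all genes. By direction these are 3 above and 2 below, where 8.44% and 9.07% of all genes were. Bright genes made up 3 of the 5 (17.6% of 17, as against 26.3% of all bright genes) and dim ones 2 (8.33% of 24, as against 8.71% of all dim genes). Over both directions 20 of 41 (48.8%) went the same way at all 3 replicate numbers, as against 40.7% of all genes. At all 3 replicate numbers 13 of 41 were higher (31.7%) and 7 lower (17.1%) in low sodium, as against 20.0% and 20.7% of all genes. Of the 17 bright genes 6 were higher (35.3%) and 4 lower (23.5%) in this way, as against 25.2% and 29.5% of all bright genes. The median difference of the 17 bright genes was 0.04, beside -0.03 over all bright genes, and 0.07, 0.06 and -0.05 at replicate numbers 1, 2 and 3. The 24 dim genes had a median difference of 0.13, beside 0.03 over all dim genes.

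The offset of the replicate 3 arrays had a median size of 0.72 over the 41 genes, where the difference between the media had one of 0.40, and over all genes these medians were 0.45 and 0.30. In 19 of 41 (46.3%) both replicate 3 arrays lay on the same side of the other 4, as against 36.0% of all genes. They were above the others in 9 (22.0%) and below in 10 (24.4%), as against 13.7% and 22.3% of all genes. Among the bright genes this was so in 9 of 17 (52.9%), as against 45.1% of all bright genes. For Tnf the offset was -1.81, for Tnfrsf1b 1.29, for Tnfsf9 -0.95, for Tnfrsf4 -0.88 and for Cd40 0.72. On the probe sets used, Tnf and its receptor gene Tnfrsf1b thus lay on opposite sides of the other arrays in replicate 3. The other bright probe set of Tnfrsf1b did not show this. Its replicate 3 arrays, at 7.71 in normal and 8.45 in low sodium, were its lowest and highest. Both genes were higher in low sodium at every replicate number. The larger offsets belonged to dim genes, with 2.89 in Tnfrsf14 and 2.58 in Tnfrsf9.

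**Figure D5:**
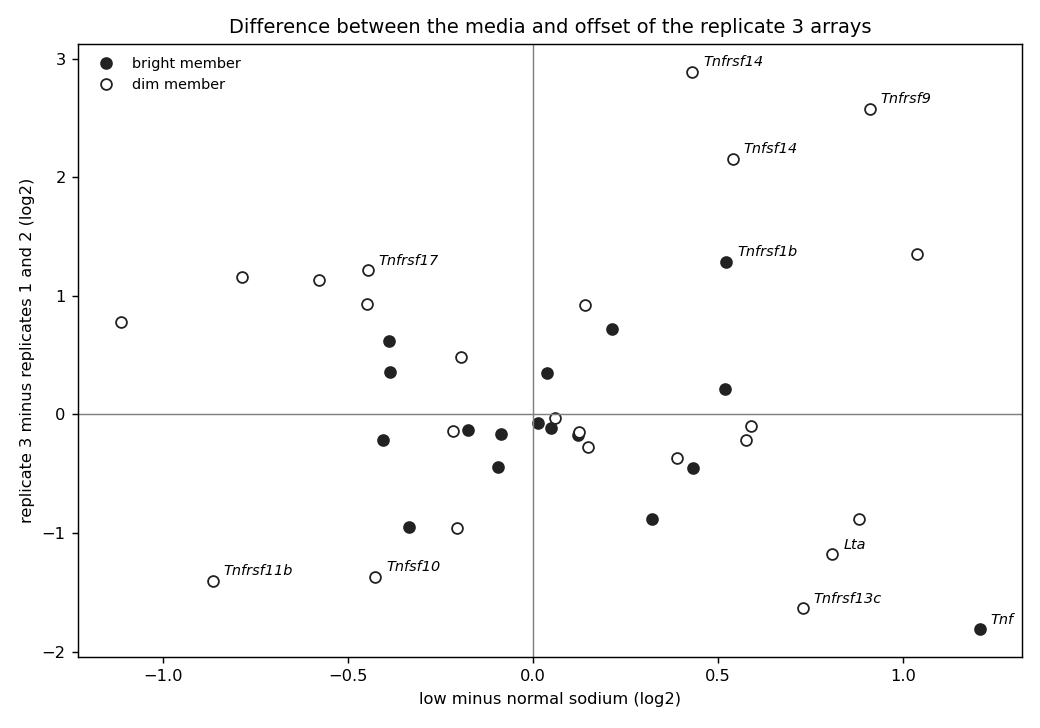
Mean of the 2 replicate 3 arrays minus mean of the 4 others (log2, vertical axis) against low minus normal sodium (log2, horizontal axis) for the 41 genes, filled symbols for bright and open symbols for dim genes. Named genes had both replicate 3 arrays on one side of the other 4 and a difference of these means over 1 in size. Tnf lay at 1.21 and -1.81 and Tnfrsf1b at 0.52 and 1.29.

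Genes that act below the TNF receptors were taken from a list of signalling partners. Of 42 signalling partners 39 were measured, all bright. By the replicate-3 fit 3 of 39 were higher and 0 lower, as against 7.31% and 7.45% of all bright genes, and by the plain fit 0 passed. Ikbke, which encodes the kinase IKK epsilon, had 9.71, 9.58 and 8.88 in normal and 10.41, 10.43 and 10.01 in low sodium, without overlap, and rose by 0.89 ± 0.11 (limma adjusted p = 0.00469). Mlkl, which encodes the effector of necroptosis, had 8.55, 8.47 and 8.33 in normal and 9.35, 9.34 and 8.77 in low sodium, also without overlap, and rose by 0.70 ± 0.13 (limma adjusted p = 0.0225). Adam17, which encodes the protease that sheds TNF and TNF receptors from the membrane, had 12.57, 12.65 and 11.83 in normal and 13.01, 12.94 and 12.76 in low sodium. Its groups did not overlap, and it rose by 0.55 ± 0.12 (limma adjusted p = 0.0320).

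Without any 1 of the 4 arrays of replicates 1 and 2 the replicate-3 fit called 1 of the 39 partners, Ikbke each time. It called 2.05% to 2.54% of all genes in those settings. Without either replicate 3 array it called 9 of the partners, and 14.6% to 14.7% of all genes. Both omissions of a replicate 3 array leave the same estimates from replicates 1 and 2. Nfkbia, which encodes the NF-kB inhibitor that NF-kB itself induces, differed by 0.39 ± 0.09, just outside the threshold by limma. Tnfaip3, another NF-kB target, which encodes the inhibitor A20, differed by 0.07 ± 0.24, with 0.40 and 0.53 at replicates 1 and 2 and -0.71 at replicate 3. The adaptor genes Tradd, Fadd and the alternative-pathway kinase gene Map3k14 differed by -0.07, -0.02 and 0.01.

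Some markers of osteoclasts and of macrophages also rose in low sodium. Of 9 osteoclast markers 5 rose by the replicate-3 fit, namely Dcstamp, Atp6v0d2, Ocstamp, Ctsk and Mmp9, as against 3.78% of all genes and 7.31% of bright ones, and 0 passed the plain fit. Of the other 4, Acp5 and Calcr differed by 0.70 and 0.55 (limma adjusted p of 0.422 and 0.730), and Oscar and Itgb3 by -0.17 and -0.23, lower at each replicate number. The summed intensity of the 9 was 812 to 2204 on the normal-sodium arrays and 6235 to 7481 on the low-sodium arrays. Atp6v0d2 alone gave 6156 on the low-sodium replicate 3 array. Without it, a choice made after the values were seen, the sums were 1875, 1608 and 660 in normal and 4800, 4424 and 1325 in low sodium, so that the groups overlapped through replicate 3. Of the 10 macrophage markers, all bright, 2 rose by the same fit, as against 7.31% of bright genes, and 0 passed the plain fit. They were Adgre1 by 0.96 ± 0.10 and Mertk by 1.47 ± 0.23 (limma adjusted p of 0.00320 and 0.0115), both without overlap. The other macrophage markers did not pass, with differences from -0.16 (Csf1r, lower without overlap) to 0.27 (Cd68). The part of cell state, by either set of markers, in the difference of Tnf was not tested. More cells of a state and more RNA per cell cannot be told apart in these bulk samples.

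Ligands and receptors of the superfamily whose symbols fall outside the rule numbered 10, and none passed either fit. They were Fasl, Cd27, Cd70, Cd40lg, Ltbr, Eda, Edar, Eda2r, Ngfr and Relt. Ltbr, which encodes the lymphotoxin beta receptor, and Relt were the 2 bright ones. Ltbr had 9.80, 9.57 and 10.22 in normal and 9.62, 9.74 and 9.90 in low sodium (-0.11 ± 0.11), and Relt 8.34, 8.14 and 8.37 in normal and 7.94, 8.17 and 7.15 in low sodium (-0.53 ± 0.24).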

How the data were processed

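The deposited values were probe set intensities on a linear scale, 1 per array, from biotin-labelled RNA on 6 Affymetrix mouse arrays. The submitters' processing notes list Partek, and how probes were summarised is not stated in the labels. Arrays had median intensities of 47.8 to 74.5, and the number of arrays limits the precision.

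The 64 manufacturer controls were left out of the 45101 probe sets, and 34945 of the remaining 45037 carried 1 gene symbol, 932 several and 9160 none. Log2(intensity + 1) of 18193 genes, each by its brightest probe set, was fitted with limma 3.58.1 in R 4.3.3 (two-sided), and fits were tested on simulated data. There 200 bright genes were changed by 1 or 2 (log2). The plain fit called 0.00% and 48.6% of these changes, and the replicate-3 fit 69.4% and 92.3%. The simulated arrays were drawn from the replicate-3 fit, so they favour it. Standard errors in the text are those of the replicate-3 fit unless another is named. Every gene of the family was named, and values on each array were given for bright genes, Tnfsf11 and Tnfrsf11b; partners were named where they passed, and all 10 outside family genes were listed although none passed. Others named beside them, with Tnfrsf10b, Traf3ip3, Ltbr and Relt, were chosen after their values were seen. Members and lists were chosen with earlier results of these data known. All 41 genes were found in the RefSeq table of GRCm38.p6, and the files name no build.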

Additional observations from a re-analysis of the deposited data

How the results depend on the processing

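The plain fit called 0 of the 41 genes under all 16 alternatives, of which the filter on dim genes tested the 17 bright ones only. Under none of them did it call more than 0.22% of the genes tested. Of the 2 genes called by the replicate-3 fit, Tnf alone remained after median centring, probe set averaging or with a replicate block. With a constant prior 0 remained. In these settings 3.62%, 4.52%, 2.99% and 0.011% of all genes were called, as against 7.6% in the fit as reported. Leaving out each array in turn gave 1 to 3 calls, and Tnf was among them each time. The share of all genes called ran from 2.05% to 14.7% over these omissions. Of the 39 signalling partners 3 were called. When only bright genes were tested 6 were called, as against 20.6% of the genes tested. With a constant prior 0 were called, and with the replicate block 1. In replicates 1 and 2 alone 9 were called, as against 14.9% of all genes. Other genes were among the 6 and the 9. Leaving out each array gave 1 to 9. Deviations from the group means correlated at 0.10, 0.08 and 0.24 across genes for numbers 1, 2 and 3. Normal-sodium replicate 2 correlated slightly better with low-sodium replicate 1 (0.09). As the replicate 3 arrays stood apart in both media, these correlations cannot decide whether the replicate numbers pair the cultures. The median of bright genes stayed between -0.003 and 0.07. Background correction could not be varied on processed values.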

Other observations

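Tnfsf14, which encodes LIGHT, and Tnfrsf14, which encodes its receptor HVEM, were both dim and both higher on the replicate 3 arrays in either medium, a pattern chosen after the values were seen. Tnfrsf14 had log2 intensities of 3.81, 3.75 and 6.88 in normal and 3.97, 4.73 and 7.03 in low sodium, and Tnfsf14 2.46, 2.40 and 4.64 in normal and 3.02, 3.00 and 5.10 in low sodium. The other probe set of Tnfsf14 did not show this, with 1.30 and 0.84 on the replicate 3 arrays. Tnfrsf9, which encodes 4-1BB, had an intensity of 510 on the low-sodium replicate 3 array and of 15.5 to 112 on the other 5. Of its other probe sets 1 was also highest there, at a log2 intensity of 7.47, and 1 was not, at 5.24.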
